A study of Rattus norvegicus with 13 samples.

Results

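Kidneys of irradiated rats that drank lisinopril were compared with kidneys of unirradiated, untreated rats. The comparison was defined by the group name in the labels. It covers 9 of the 13 small RNA libraries, 4 control and 5 lisinopril, and the 460 rows of mature rat miRNAs, of which 419 passed the low-count filter and were tested and 41 did not. All animals were female WAG/RijCmcr rats, an inbred Wistar strain. They were 11 to 12 weeks old and about 155 g in weight when the irradiated ones were exposed, and kidneys were taken on day 35. Control rats received 0 Gy and no drug. Rats of the lisinopril group were exposed to 320 kVp X-rays (13 Gy, delivered at 1.75 Gy per minute) with only a hind limb shielded ("leg-out PBI"), and from day 7 until the end drank lisinopril at about 24 mg per square metre per day. A further 4 irradiated rats without the drug entered the same model and are quoted beside the results. The labels also list daily saline (40 ml per kg, days 3 to 7) and enrofloxacin (10 mg per kg, up to day 14) as supportive care, without saying whether controls received them. No group received lisinopril alone, so this contrast joins irradiation and drug, and the contributions of each cannot be told apart in it.

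miRNAs are short RNAs that guide Argonaute proteins to messenger RNAs, mostly through their seed, bases 2 to 8 from the 5′ end. Each hairpin precursor can give a 5p and a 3p arm, and hairpins of a cluster are often cut from a shared transcript. DNA damage activates p53, which transcribes the genes of miR-34a, miR-34b and miR-34c directly. Lisinopril blocks angiotensin converting enzyme, and such inhibitors are known to slow radiation injury of the kidney.

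The miRNAs on which the results turn are printed from 5′ to 3′, with the seed in capitals, from RefSeq (GRCr8 annotation), which held sequences for 415 of the 460 rat miRNAs and 25 of the 26 that passed the test. The first set is shown because its members carry the same seed.
miR-34a-5p: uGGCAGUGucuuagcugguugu
miR-34c-5p: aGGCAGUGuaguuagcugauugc
miR-34b-5p: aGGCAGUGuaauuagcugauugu
miR-449a-5p: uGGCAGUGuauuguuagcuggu
The second set holds the guide strands of the cluster of miR-183, miR-96 and miR-182, whose seeds have the 5 letters UGGCA in common, found in 4 of the 377 tested seeds (1.06%).
miR-183-5p: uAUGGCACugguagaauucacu
miR-96-5p: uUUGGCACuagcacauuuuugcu
miR-182: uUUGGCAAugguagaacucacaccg
The third set comes from the imprinted Dlk1-Dio3 locus. The seeds of miR-379-5p and miR-411-5p have the 6 letters GUAGAC in common, found in 2 of 377 tested seeds.
miR-127-3p: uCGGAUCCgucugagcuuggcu
miR-541-5p: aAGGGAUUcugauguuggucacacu
miR-411-5p: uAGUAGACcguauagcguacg
miR-379-5p: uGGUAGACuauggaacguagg
The fourth set shows entries that are reverse complements of other rat miRNAs, with miR-3553 set against miR-183-5p and miR-3578 against miR-369-5p.
miR-3553: cAGUGAAUucuaccagugccaua
miR-3578: gCGAAUAUaacacggucgaucu
miR-369-5p: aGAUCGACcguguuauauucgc
The 25 called miRNAs with a sequence had 25 different seeds. Only miR-34a-5p had a seed that other tested miRNAs carried.

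Libraries held 5762180 to 11095939 rat mature counts in the lisinopril group and 8459787 to 9426318 in controls 1, 3 and 4. Control library 2 stood apart with 1194175 counts and 37 rat miRNAs at 0, against at most 2 in the other 8 libraries compared. Rows named after other species made up 29.0% of its mature miRNA counts, against 10.3 to 12.7% in the other 8. Its floor, the level of 3 counts, was 3.19 CPM, a count scaled to a common library size and the unit of level used throughout, against 0.289 to 0.491 CPM in the other 8, and these floors cover counting error only. Results are therefore given with and without it. The 15 tested kidney marker miRNAs, among them miR-10a, miR-10b, miR-192, miR-194 and miR-204, together made up 355916 to 637686 CPM in the controls, with 373753 to 479905 CPM after lisinopril. That control range includes control library 2. In it miR-10a-5p alone made up 44.2% of the rat counts, against 31.7 to 34.9% in controls 1, 3 and 4.

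With lisinopril after irradiation, 3 miRNAs were higher and 23 lower than in control kidneys. miR-34a-5p rose most, to 6.0 times the control mean. The whole cluster of miR-183, miR-96 and miR-182 fell to about 0.389 to 0.534 times control, and 11 Dlk1-Dio3 miRNAs lying after the locus' small nucleolar RNA genes fell as well. miR-127-3p and miR-341, which lie before those genes, rose, the latter on few counts, while miR-770-5p, also before them, fell. The 26 were 6.21% of the 419 tested miRNAs (0.716% higher, 5.49% lower) at a Benjamini-Hochberg adjusted p under 0.05 in edgeR's quasi-likelihood test, which applies to every adjusted p of a miRNA below. Of the 26, 17 had a control or lisinopril mean of at least 10 CPM. The count of higher miRNAs depended on the setting: it was 17, beside 23 lower, when only control and lisinopril libraries were fitted, and 17, beside 33 lower, with sample quality weights. Before adjustment, 95 miRNAs had a p under 0.05. Because the libraries come from whole kidney, fewer cells of a type and less of a miRNA per cell cannot be told apart.

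Without control library 2, 32 of 427 miRNAs passed (7.49%), 5 higher (1.17%) and 27 lower (6.32%), and all 26 were among them. In 22 of the 26 no lisinopril library overlapped the controls, against 56 of all 419 (13.4%), 25 higher (5.97%) and 31 lower (7.4%). Without control library 2 this held for all 26, against 77 of 419 (18.4%), 33 higher (7.88%) and 44 lower (10.5%). The called miRNAs were selected on the same values, so these counts describe them and are no further test. The number of calls moved with single libraries, from 13 without control library 4 to 43 without irradiated library 2. Irradiated libraries entered this contrast only through the shared low-count filter, scaling and estimate of the spread. Without irradiated library 2, 428 miRNAs were tested. Without lisinopril library 3, 4 or 5 the calls numbered 15, 15 and 16. A set of 10 miRNAs was called in every one of 26 alternative settings that tested them: miR-34a-5p, miR-127-3p, miR-182, miR-183-5p, miR-183-3p, miR-3553, miR-96-5p, miR-541-5p, miR-409b and miR-802-5p.

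**Figure D1:**
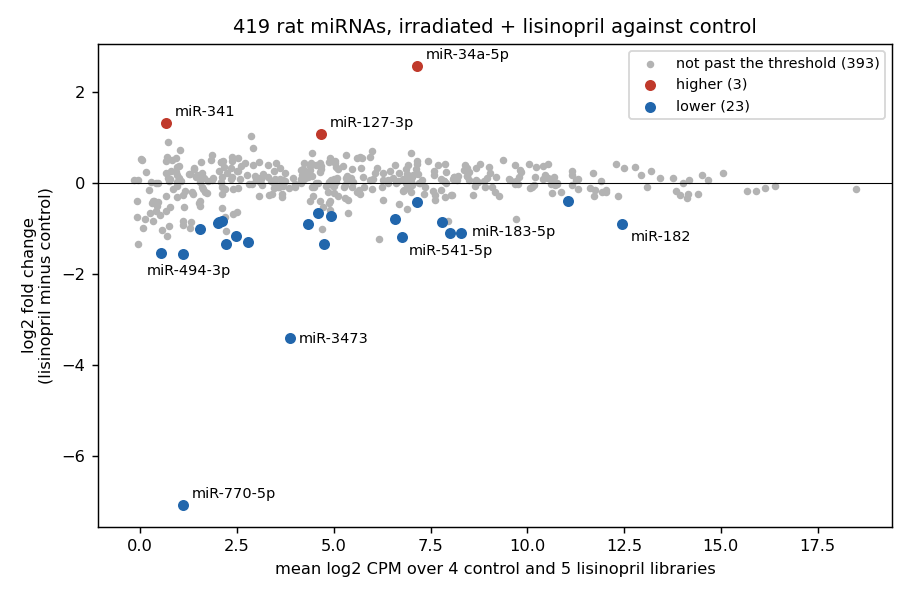
Log2 fold change (lisinopril minus control, y axis) of the 419 tested miRNAs against their mean log2 CPM over the 9 libraries (x axis). Red and blue points are the 3 higher and 23 lower miRNAs past an adjusted p of 0.05, grey points the other 393. miR-34a-5p lies above and miR-770-5p and miR-3473 below all others.

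**Figure D2:**
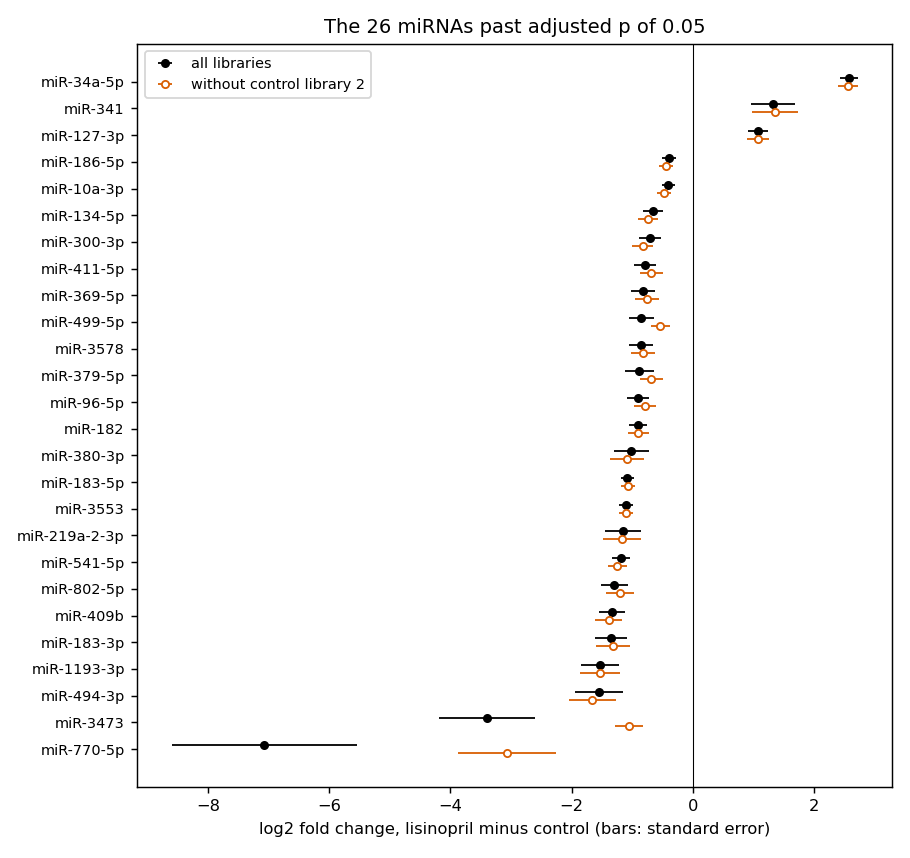
Log2 fold change (x axis, bars show the standard error) of the 26 called miRNAs with all libraries (filled) and without control library 2 (open). The 2 estimates lie close together except for miR-770-5p, miR-3473 and, less so, miR-499-5p.

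miR-34a-5p, a direct p53 target that restrains cell cycle entry, was read at 51.6, 50.0, 53.7 and 54.4 CPM in the 4 controls. In the lisinopril libraries it stood at 236, 314, 326, 339 and 356 CPM. Every treated kidney was more than 4 times the highest control, and lisinopril library 1 was the lowest of its group. On the log2 scale miR-34a-5p rose by 2.58 (SE 0.145, adjusted p = 8.19e-09), or by 2.56 (adjusted p = 1.49e-07) without control library 2. Since the groups do not overlap, permuting the group names exactly over log2 CPM gives its smallest possible two-sided p, 0.0159 with all 9 libraries and 0.0357 without control library 2, and adds nothing to that observation. Irradiated kidneys without the drug had a mean of 306 CPM, and the difference between the 2 irradiated groups was 0.04 on the log2 scale (SE 0.131, adjusted p = 0.92).

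The seed mates of miR-34a-5p did not pass. miR-34c-5p, another p53-induced member, was at 218, 178, 189 and 211 CPM in controls and 293, 279, 250, 263 and 249 CPM with lisinopril. The groups did not overlap. Its log2 fold change of 0.42 (adjusted p = 0.0517) was 0.37 (adjusted p = 0.117) without control library 2, and it passed in 8 of 26 alternatives, among them DESeq2, no low-count filter, only control and lisinopril libraries, and without irradiated library 2 or 4. miR-34b-3p had means of 5.16 and 7.30 CPM (0.45, adjusted p = 0.122) and miR-34c-3p 2.57 and 4.53 CPM (0.63, adjusted p = 0.150). miR-34b-5p had means of 3.81 and 6.37 CPM (0.47, adjusted p = 0.474) and miR-449a-5p 1.51 and 2.01 CPM (0.36, adjusted p = 0.636). So 1 of 6 tested members of the family was called, and the median over the 6 was 0.46, beside 0.05 over all 419.

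All 4 tested members of the miR-183, miR-96 and miR-182 cluster, known for its part in sensory hair cells and the retina and cut from a shared transcript, were lower. miR-183-5p was at 478, 491, 418 and 525 CPM in controls and at 228, 207, 200, 248 and 244 CPM with lisinopril. The highest treated kidney was thus well below the lowest control. On the log2 scale the difference was -1.08 (SE 0.107, adjusted p = 8.64e-06), and -1.07 with control library 2 removed.

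miR-182, the most abundant of the 26, was at 8048, 8097, 7205 and 8694 CPM in controls and at 4531, 3185, 3650, 4180 and 5849 CPM with lisinopril. No values overlapped, and the treated kidneys spread more widely (SD 1016 CPM, n = 5) than the controls (SD 612 CPM, n = 4). The difference was -0.90 on the log2 scale (SE 0.154, adjusted p = 0.00183). miR-96-5p averaged 28.9 ± 6.77 CPM in controls (SD, n = 4) and 15.1 ± 1.46 CPM with lisinopril (SD, n = 5), a log2 difference of -0.90 (adjusted p = 0.00695). The minor arm miR-183-3p averaged 7.46 ± 1.65 and 2.90 ± 0.754 CPM, a log2 difference of -1.35 (adjusted p = 0.00584). Both arms of the miR-183 hairpin therefore moved the same way. Lisinopril library 1 had 4.25 CPM of miR-183-3p, while the other 4 had 2.52 to 2.61 CPM.

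On average, irradiated kidneys without the drug lay between the groups for this cluster. Their mean for miR-183-5p was 322 CPM, for miR-182 5375 CPM and for miR-96-5p 18.6 CPM. Single irradiated kidneys were apart from both groups for miR-183-5p, at 313 to 331 CPM. They overlapped the lisinopril group for miR-182, miR-96-5p and miR-183-3p, and the controls for the latter 2. The difference between the 2 irradiated groups for miR-183-5p was -0.51 on the log2 scale (adjusted p = 0.0504). None of the 26 miRNAs passed that edgeR test, and none of the 419 did (0.0%), though 63 had an unadjusted p under 0.05. The count among the 26 was 2 (miR-183-5p and its antisense entry miR-3553) with RLE size factors, library totals, library sizes without miR-10a-5p, a minimum of 10 CPM or limma-voom, 4 with DESeq2 and 8 with sample quality weights. It was 6 without irradiated library 4 and 2 without lisinopril library 4.

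Set against the same 4 controls, so that the estimates are not independent of those above, irradiated kidneys without the drug had 7 calls among 419 (1.67%), 2 higher (0.477%) and 5 lower (1.19%). The higher ones were miR-34a-5p, with a log2 fold change of 2.54 (2.58 with lisinopril), and miR-34c-5p, with 0.58 (0.42 with lisinopril, not called). The lower ones were miR-183-5p (-0.57, and -1.08 with lisinopril), its antisense entry miR-3553 (-0.57 and -1.10), miR-411-5p (-0.91 and -0.79), miR-541-5p (-0.76 and -1.18) and miR-802-5p (-1.14 and -1.30). For none of the 7 did the difference between the irradiated groups pass the edgeR test.

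**Figure D3:**
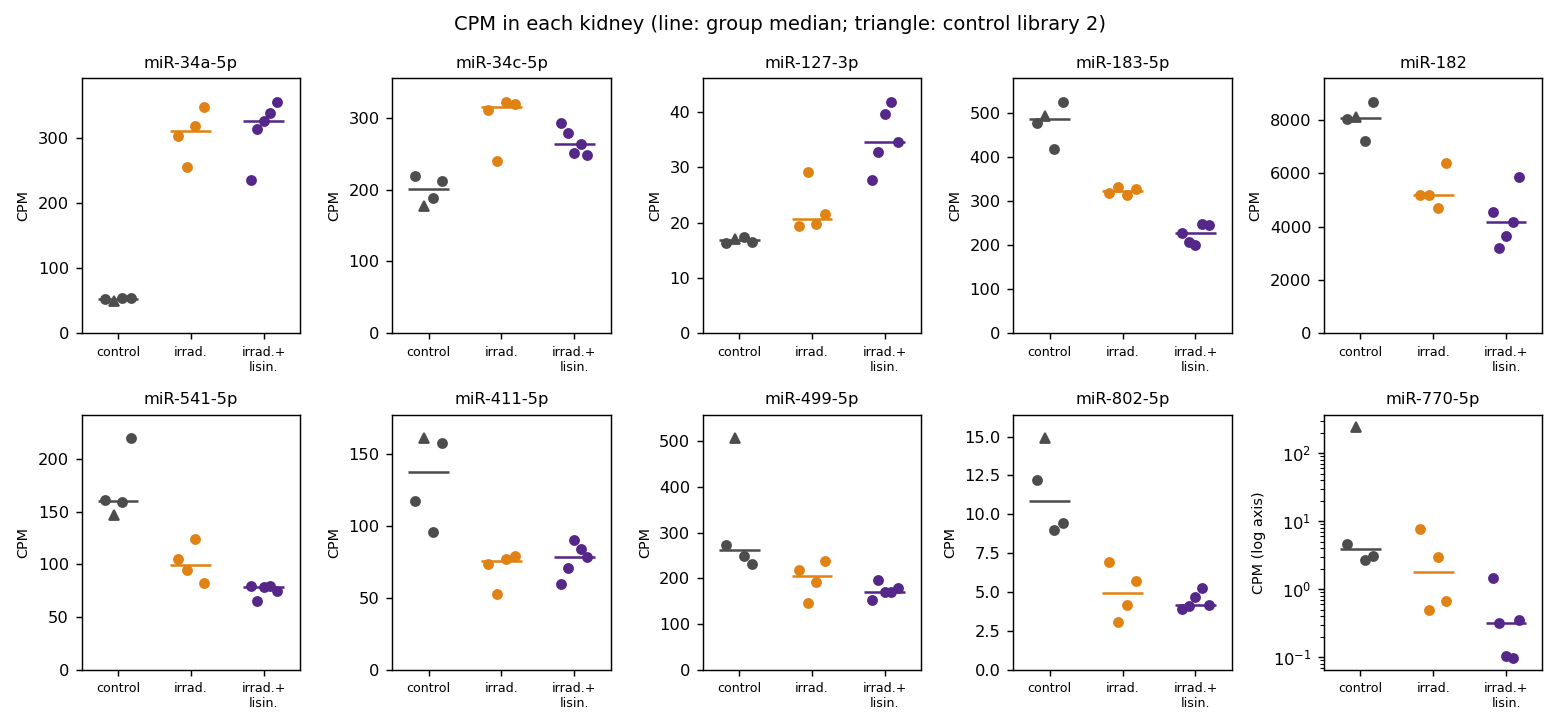
CPM (y axis, logarithmic for miR-770-5p only) of 10 miRNAs in each kidney, in the 4 control, 4 irradiated and 5 lisinopril animals, with a line at the group median and a triangle for control library 2. miR-183-5p is at 418 CPM or more in controls and at most 248 CPM with lisinopril, and miR-34a-5p at most 54.4 and at least 236 CPM.

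miR-3553 was called lower at -1.10 (adjusted p = 8.64e-06), with means of 395 ± 37.5 and 184 ± 20.1 CPM. It is no separate evidence: its reverse complement contains miR-183-5p over 22 bases, and its count was 0.797 to 0.845 times that of miR-183-5p in all 13 libraries. Among rat miRNAs with a sequence there were 35 pairs in which a run of at least 16 bases of one was found in the reverse complement of the other. Both partners were called in 2 of these pairs, miR-183-5p with miR-3553 and miR-369-5p with miR-3578. miR-3578 matches the reverse complement of miR-369-5p over 22 bases, with 0.857 to 1.03 times its count. No source used here says whether counting used the strand, so reads of such partners cannot be told apart, and the 23 lower calls stand for 21 sequences. With the partner of smaller total left out of each pair, 390 miRNAs were tested and 4 were higher and 21 lower, 24 of them among the 26.

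The Dlk1-Dio3 locus, an imprinted domain whose noncoding transcripts are made from the maternal copy, carries miRNA genes on either side of a block of small nucleolar RNA genes. Between Mir770 and Mir410 the table held 46 mature miRNAs, and 36 were tested. Before the block 2 of 6 tested miRNAs rose and 1 fell, whereas after it 0 of 30 rose and 11 fell. Over all 419 tested miRNAs 0.716% were called higher and 5.49% lower. With 1 entry kept per antisense pair, 2 of 5 rose and 1 fell before the block, and 0 of 28 rose and 10 fell after it. All 30 log2 fold changes after the block were negative, from -1.55 to -0.26 with a median of -0.85, beside 180 negative of 419 and a median of 0.05 over all miRNAs. Without control library 2 the count of lower ones after the block was 15 and the median -0.86. When libraries were scaled by their totals the 30 remained negative, and 7 passed. The count also rested on single libraries: without control library 4 only 2 of 29 tested passed and 1 of the 29 was positive, and 7 passed without control library 3, 6 without lisinopril library 3, 5 without library 4 and 6 without library 5. In those 5 omissions the median stayed between -0.84 and -0.81. These miRNAs share precursor transcripts, and several share reads or sequence, so they are not 30 independent values.

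**Figure D4:**
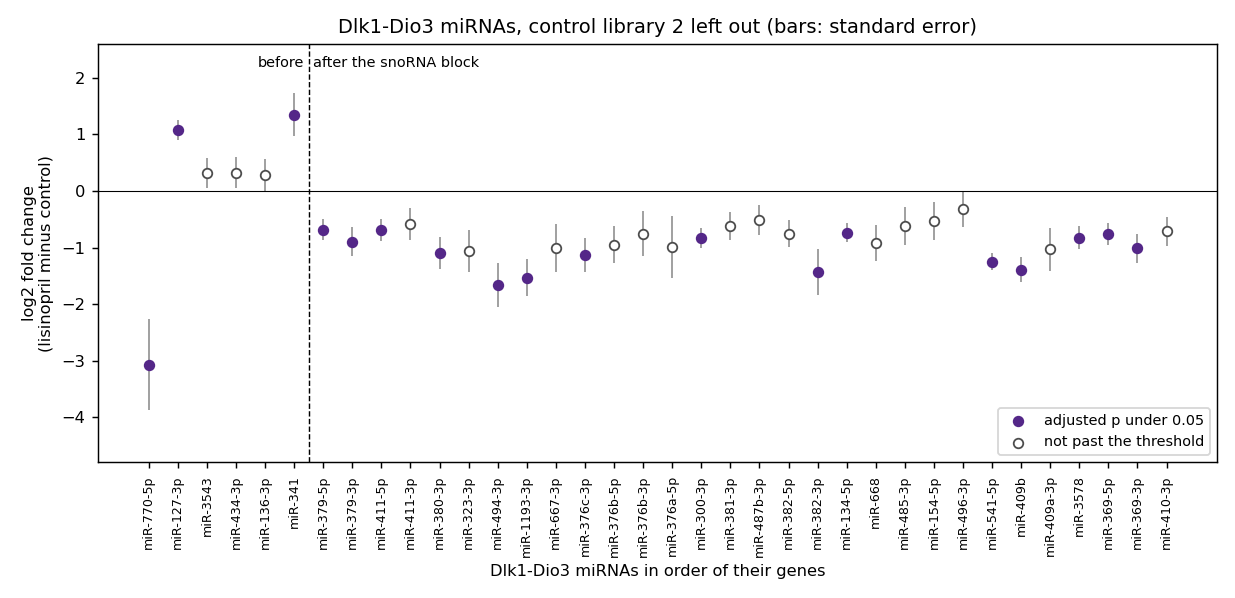
Log2 fold change without control library 2 (y axis, bars show the standard error) of the 36 tested Dlk1-Dio3 miRNAs in the order of their genes (x axis), with the snoRNA block as a dashed line. Filled points passed an adjusted p of 0.05. All 30 to the right of the line are negative, and to its left only miR-770-5p is.

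miR-541-5p was the clearest of those that fell. It was at 161, 147, 159 and 220 CPM in controls and at 80.0, 65.5, 78.9, 79.6 and 74.8 CPM with lisinopril. The lisinopril kidneys were close together and all far below the controls, of which library 4 was the highest. The log2 fold change of miR-541-5p was -1.18 (SE 0.150, adjusted p = 0.000111), or -1.25 if control library 2 was dropped. Irradiated kidneys without the drug had a mean of 101 CPM.

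miR-409b was at 37.0, 38.3, 42.0 and 61.5 CPM in controls and at 16.8, 15.4, 21.8, 18.6 and 16.6 CPM with lisinopril. Again no values overlapped. The log2 fold change of -1.33 had an SE of 0.213 (adjusted p = 0.00107). Its antisense partner miR-409a-3p, with 0.0871 to 0.229 times its count, differed by -1.05 on the log2 scale (adjusted p = 0.0971). miR-411-5p, processed from the start of this gene group, was at 117, 161, 95.6 and 157 CPM in controls and at 59.4, 70.3, 89.9, 83.7 and 78.3 CPM with lisinopril. The groups nearly touched, at 95.6 and 89.9 CPM. Its log2 fold change was -0.79 (adjusted p = 0.0172), and -0.69 (adjusted p = 0.0816) without control library 4, which held the second highest value. Its minor arm miR-411-3p did not pass (-0.55, adjusted p = 0.233).

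The other calls after the block were smaller or lower in level. miR-134-5p, known from dendrites of neurons, averaged 31.1 ± 5.62 and 19.9 ± 3.01 CPM (SD), a log2 difference of -0.66 (adjusted p = 0.0304). miR-300-3p averaged 40.2 ± 10.8 and 24.9 ± 3.65 CPM (-0.71, adjusted p = 0.0308) and overlapped the treated group only through control library 2. The remaining 6 had control means of 2.13 to 6.02 CPM: miR-379-5p (-0.88), miR-369-5p (-0.83), miR-3578 (-0.86), miR-380-3p (-1.01), miR-494-3p (-1.55) and miR-1193-3p (-1.53). Control library 2 held only 1 count of miR-494-3p and 2 of miR-1193-3p, so that it says little about these. For miR-379-5p control library 2 was the highest (10.6 CPM, the other controls having 3.86 to 4.95 CPM), and the log2 fold change without it was -0.69 (adjusted p = 0.0404).

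Most of these calls lay near the threshold. miR-1193-3p, miR-3578 and miR-369-5p had adjusted p-values of 0.0548, 0.0548 and 0.0674 without control library 4. miR-369-5p also missed without lisinopril library 3 (0.06) or 4 (0.0504). miR-134-5p missed without control library 3 or 4 or lisinopril library 1, 3, 4 or 5, at 0.0550 to 0.0988. For miR-300-3p the p-values were 0.0513 to 0.119 without control library 1, 3 or 4 or lisinopril library 1, 2, 4 or 5, and for miR-494-3p 0.0550 to 0.110 without control library 1, 3 or 4 or lisinopril library 2, 3, 4 or 5. miR-380-3p was called only with every library, or without control library 2 or irradiated library 2 or 4, and reached 0.150 without control library 3. miR-379-5p was called in the same 3 omissions and also without control library 3, and reached 0.0988 without control library 4.

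Before the block, miR-127-3p, encoded antisense to the retrotransposon-derived gene Rtl1, was at 16.4, 17.0, 17.4 and 16.5 CPM in controls and at 27.6, 32.7, 39.6, 41.9 and 34.7 CPM with lisinopril. The controls were nearly equal, and every treated kidney lay above them. It rose 2.10-fold (log2 fold change 1.07, SE 0.169, adjusted p = 0.00107), and without control library 2 the log2 fold change was 1.08. The irradiated group without the drug had a mean of 22.5 CPM, and the difference between the irradiated groups was 0.65 (adjusted p = 0.0931).

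miR-341, a rodent miRNA, was near the detection limit, with 7, 1, 7 and 6 counts in controls and 15, 9, 21, 26 and 15 counts with lisinopril. Its log2 fold change was 1.32 (adjusted p = 0.0413). The groups overlapped through control library 2, and the call was lost without control library 1, 3 or 4, irradiated library 3, or lisinopril library 1, 3, 4 or 5, at adjusted p-values up to 0.121. Neighbouring miR-434-3p (0.28, adjusted p = 0.631) and miR-136-3p (0.17, adjusted p = 0.822) were not called.

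miR-770-5p, from the first gene of the locus, had 36, 229, 28 and 26 counts in controls and 9, 3, 1, 1 and 3 with lisinopril. The groups did not overlap, but control library 2, the shallowest, held by far the most. Its log2 fold change of -7.07 (adjusted p = 0.0115) became -3.07 (adjusted p = 0.0384) without that library, and with so few treated counts neither value is a measured ratio. miR-3473 behaved alike: its levels were 20.1, 299, 13.3 and 13.8 CPM in controls and 8.83, 5.12, 5.89, 9.02 and 9.04 CPM with lisinopril. All treated kidneys were below all controls. The log2 fold change of miR-3473 was -3.40 (adjusted p = 0.0172), -1.05 (adjusted p = 0.0128) without control library 2, and its adjusted p was 0.0544 without lisinopril library 3. It also missed with limma-voom (adjusted p = 0.110), limma-voom with sample quality weights (0.0589) and a robust edgeR fit (0.0597). DESeq2 did not call it either, so that it was called in 21 of 26 alternatives.

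Outside these groups, miR-802-5p, known from kidney tubules and liver, was at 12.2, 14.9, 8.97 and 9.44 CPM in controls and at 3.92, 4.08, 4.65, 5.24 and 4.17 CPM with lisinopril. Its values did not overlap. The log2 difference was -1.30 (SE 0.227, adjusted p = 0.00226), and -1.20 without control library 2. The other arm, miR-802-3p, had means of 7.05 and 4.02 CPM, did not overlap either and did not pass (-0.67, adjusted p = 0.169). The irradiated mean for miR-802-5p was 4.98 CPM.

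miR-499-5p, made from an intron of the muscle myosin gene Myh7b, was at 273, 506, 250 and 231 CPM in controls and at 153, 196, 169, 170 and 178 CPM with lisinopril. Control library 2 was far above the other controls, and the groups did not overlap with or without it. miR-499-5p differed by -0.85 on the log2 scale (adjusted p = 0.0256), or by -0.54 (adjusted p = 0.0485) without control library 2. The adjusted p was 0.0536 to 0.0730 without lisinopril library 1, 3, 4 or 5. Of 5 tested muscle miRNAs it was the only 1 called, beside 6.21% called over all miRNAs. Together the 5 came to 304 to 572 CPM in controls (304 to 339 CPM without control library 2) and 207 to 257 CPM after lisinopril. Most of these sums was miR-499-5p itself, with means of 315 and 173 CPM, so they largely restate its call. Of the defining ones, miR-1-3p had means of 1.79 and 0.868 CPM, and miR-133a-3p stood at 31.4 ± 4.92 and 31.0 ± 5.56 CPM (SD). The part of muscle tissue in the result was not tested.

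The smallest called differences were those of miR-186-5p and miR-10a-3p. miR-186-5p averaged 2463 ± 241 and 1872 ± 123 CPM (SD), a log2 difference of -0.40 (adjusted p = 0.0444). miR-10a-3p, the minor arm of the HoxB-cluster miRNA miR-10a, averaged 166 ± 17.7 and 125.8 ± 8.38 CPM, a log2 difference of -0.41 (adjusted p = 0.0413). Its major arm miR-10a-5p, the most abundant miRNA of these kidneys, did not pass (-0.13, adjusted p = 0.764). miR-219a-2-3p, known from myelinating cells, was lower in level and differed more. It averaged 8.53 ± 0.651 and 3.88 ± 1.78 CPM (-1.16, adjusted p = 0.0308). These 3 calls were fragile. When libraries were left out, adjusted p-values reached 0.126 for miR-186-5p and 0.0959 for miR-219a-2-3p without control library 4, and 0.108 for miR-10a-3p without control library 3. Scaling by library totals gave 0.239 for miR-186-5p, 0.0961 for miR-219a-2-3p and 0.229 for miR-10a-3p. miR-186-5p missed in all omissions except those of control library 2 and irradiated libraries 2 and 4, miR-10a-3p in all except these and lisinopril library 2, and miR-219a-2-3p without control library 1, 3 or 4 or lisinopril library 3, 4 or 5.

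Of the 6 miRNAs called without control library 2 but not with all libraries, 5 were from the same locus. With all libraries, miR-431 and miR-331-5p were removed by the low-count filter and so were not tested. miR-369-3p and miR-379-3p also passed with sample quality weights and without irradiated library 2, and miR-369-3p without lisinopril library 1. miR-369-3p (-1.01, adjusted p = 0.0322), miR-376c-3p (-1.13, adjusted p = 0.0384), miR-379-3p (-0.90, adjusted p = 0.0473) and miR-382-3p (-1.44, adjusted p = 0.0474) were lower and lie after the block. In 2 of these, miR-376c-3p and miR-382-3p, control library 2 held 0 counts, where a level up to its floor of 3.19 CPM cannot be told from 0. miR-431, which lies before the block, was higher (2.31, adjusted p = 0.0322), on 3, 1 and 1 counts in controls 1, 3 and 4 against 2, 11, 12, 14 and 6 with lisinopril. miR-331-5p was higher too (1.27, adjusted p = 0.0404), on 2, 7 and 5 against 6, 11, 11, 15 and 14 counts.

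Of 29 lists of miRNAs by family, cluster, pathway or cell type, 22 had tested members and no call. Over all miRNAs 26 of 419 (6.21%) were called. A short list would hold few calls at that share, so the lack of a call says little about it. Positive log2 fold changes numbered 239 among all 419, with a median of 0.05. The X-linked cluster of miR-322, miR-503, miR-450 and miR-542 had 8 of 8 positive log2 fold changes with a median of 0.40. In it miR-542-5p was at 16.5, 10.6, 20.2 and 18.05 CPM in controls and 26.3, 28.9, 31.6, 23.6 and 24.8 CPM with lisinopril. Those groups did not overlap (0.67, adjusted p = 0.0584), and miR-450a-5p followed with 0.50 (adjusted p = 0.0971). miR-542-5p passed in 6 of 26 alternatives, among them DESeq2 and the omission of control library 3 or irradiated library 2 or 4. The let-7 family, regulators of growth and differentiation, had 18 of 18 positive values, but a median of only 0.17. There were 17 positive with RLE size factors or without control library 2, and 15 without lisinopril library 2. Several members have antisense entries or much sequence in common, so these are not 18 independent values. The smallest p in the family belonged to let-7g-5p (0.62, adjusted p = 0.112), which passed in 4 alternatives, 1 of them the omission of irradiated library 2.

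Lists tied to inflammation, fibrosis and angiotensin held no call with all libraries, beside 6.21% called over all miRNAs. The NF-kB-linked list had 4 of 4 negative values with a median of -0.62, beside 180 negative of all 419. miR-146a-5p, an inhibitor of Toll-like receptor signalling, was at 1403, 1243, 804 and 1257 CPM in controls and 327, 673, 630, 923 and 860 CPM with lisinopril. The groups overlapped (-0.79, adjusted p = 0.0745), and it passed with DESeq2 and without control library 3. miR-155-5p, in the NF-kB list and in that of 7 angiotensin-linked miRNAs, was at -0.60 (adjusted p = 0.0971). The next in the angiotensin list was miR-132-3p, at 0.44 (adjusted p = 0.182). The 7 pro-fibrotic miRNAs did not share a direction, with 4 positive and 3 negative values. miR-199a-5p was at 0.34 (adjusted p = 0.0744), while miR-382-5p was at -0.74 (adjusted p = 0.0744) and miR-382-3p at -1.35 (adjusted p = 0.0806), the latter 2 being Dlk1-Dio3 miRNAs as well. miR-382-3p gave that list 1 lower call without control library 2. miR-199a-5p also led the smooth muscle and fibroblast list (0 of 7 called, median 0.23). It did not overlap, at 340 to 376 CPM in controls and 413 to 508 CPM with lisinopril, and passed in 4 alternatives, DESeq2 among them. The hypoxia miRNA miR-210-3p (0.41, adjusted p = 0.0971) passed in 3. Among other p53-linked miRNAs miR-107-3p was at 0.29 (adjusted p = 0.170).

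The smallest p in each remaining list was as follows. It was miR-29c-3p (-0.27, adjusted p = 0.228) in the miR-29 family of collagen regulators, miR-30d-3p (0.49, adjusted p = 0.0942, called in 6 alternatives) in the miR-30 family and miR-200b-3p (-0.29, adjusted p = 0.105) in the epithelial miR-200 family. For the miR-17-92 and miR-106b-25 clusters it was miR-19b-3p (-0.83, adjusted p = 0.121), for the miR-15/16 family miR-497-5p (0.28, adjusted p = 0.542) and for the miR-181 family miR-181b-5p (0.14, adjusted p = 0.482). miR-27b-5p (-0.39, adjusted p = 0.0971) led the miR-23/27/24 clusters and passed in 5 alternatives, DESeq2 among them. miR-125a-3p (-0.24, adjusted p = 0.557), miR-501-3p (-0.61, adjusted p = 0.337) and miR-378a-3p (-0.24, adjusted p = 0.208) led the other 3.

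Markers of other cell types were not called apart from miR-499-5p, beside 6.21% called over all miRNAs. Leukocyte miRNAs (0 of 9 called) reached 779 to 1115 CPM in sum in controls and 751 to 1531 CPM after lisinopril, with miR-223-3p at -0.36 (adjusted p = 0.153). Erythroid miRNAs (0 of 4) summed to 918 to 2104 and 674 to 3491 CPM. They varied widely between kidneys of a group: miR-451-5p was at 15.4 to 101 CPM in controls and 1.55 to 161 CPM after lisinopril. Endothelial miRNAs (0 of 6, miR-126a-3p -0.20, adjusted p = 0.290) summed to 12202 to 15137 and 10684 to 16190 CPM, and neural and endocrine ones (0 of 7, miR-128-3p -0.45, adjusted p = 0.127) to 2023 to 2360 and 1777 to 2247 CPM. The liver miRNA miR-122 was not analysed here.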

How the data were processed

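Small RNA libraries were made with an Illumina TruSeq kit from 1 ug of total RNA of whole kidney, per the labels' protocols. The submitters' processing notes name Trim Galore 0.2.5, Bowtie 1.1.1 and the rn4 genome, while the way of counting and the strand are not given there. The values the authors deposited are raw read counts, whole numbers with a different total in each library. Of its 1121 rows only the 460 mature rat miRNAs entered the main fit; 194 rows named after other species entered an alternative, and 467 predicted rows were not used here.

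The count model was edgeR 4.0.16 under R 4.3.3: filterByExpr by group (419 kept), TMM scaling (factors 0.787 to 1.19), and a quasi-likelihood fit with a mean per group over all 13 libraries (biological coefficient of variation 0.247), adjusted by Benjamini-Hochberg at 0.05. Standard errors are the log2 fold change divided by the square root of F. The log2 CPM values add a prior count of 2. CPM are TMM-scaled. The fit was tested on simulated data. Alternatives used limma 3.58.1 and DESeq2 1.42.0. Between replicates Pearson's r over log2 CPM lay at 0.972 to 0.996, and no pair was as close as sampling noise alone would make it. P-values measure the spread between these rats. The labels give no batch.

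The miRNAs named were all those called, up to 6 called without control library 2 but not with it, the tested miR-34 family, the partner arms, and the called members and 2 smallest p-values of each list. Where a list held no call, the text may give only the smallest. Members, lists and tests were chosen with earlier results of these data known. RefSeq GRCr8 was used for sequences and gene order only, and no coordinates are given because its build differs from rn4.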

Additional observations from a re-analysis of the deposited data

Results flagged for a closer look

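Among 81 named miRNAs, each in the control and the lisinopril group, 13 of 162 sets of values had an extreme sample by Dixon's criterion at the 95% level, which chance gives for about 1 in 20 sets. Control library 2 was the extreme in 5. It was highest for miR-770-5p (244 CPM, against 2.70 to 4.64 in the other controls), miR-3473 (299, against 13.3 to 20.1), miR-499-5p (506, against 231 to 273) and miR-379-5p (10.6, against 3.86 to 4.95), and lowest for miR-379-3p (1.06, against 2.96 to 3.07). Control library 4 was highest for miR-125b-2-3p (258 CPM, against 155 to 161) and miR-382-5p (7.55, against 5.01 to 5.32).

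Lisinopril library 1 was the extreme of its group for 4. It was highest for miR-183-3p (4.25 CPM), miR-494-3p (2.94, against 0.724 to 1.26) and miR-770-5p (1.47, against 0.0970 to 0.348), and lowest for miR-126a-5p (6998, against 10457 to 11709). Lisinopril library 3 was highest for miR-181a-1-3p (146 CPM, against 118 to 124), and lisinopril library 5 for miR-9a-5p (483, against 348 to 368).

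Among rows named after other species, which the main test left out, 4 of 153 tested were called higher with lisinopril, and 21 lower, when fitted together with the rat miRNAs. In all 21 lower ones control library 2 held the highest level of the 13 libraries, and in 14 the lisinopril libraries also lay below the other 3 controls. The higher ones were oan-miR-92b (log2 fold change 2.65), pma-miR-30e-5p (1.38), aca-miR-10c-5p (1.38) and bta-miR-3601 (0.68). In each, all lisinopril libraries lay above all controls, at 1.67 CPM or more against at most 0.813 for oan-miR-92b and at 22.4 CPM or more against at most 17.6 for aca-miR-10c-5p.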

How the results depend on the processing

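Over 26 alternative settings, none of the named miRNAs that were called changed sign. miR-34a-5p kept its call in all 26, at log2 fold changes of 2.53 to 2.67. Of the 26 called miRNAs 10 were called in every setting that tested them, and 15 lost the call when at least 1 library was left out. miR-770-5p lost it only in other settings. These were limma-voom (-3.85, adjusted p = 0.0636), a robust fit (-7.07, adjusted p = 0.0527) and DESeq2, which did not call it. Against the main count of 3 higher, there were 6 with no low-count filter, 6 with DESeq2, 17 with sample quality weights, 17 with only control and lisinopril samples, 11 with these and without control library 2, and 10 with other-species rows. Against the main 23 lower, there were 15 with a mean of at least 10 CPM, which tested 282 miRNAs, and 37 with other-species rows. That last setting tested 572 rows, and 4 of its 10 higher and 21 of its 37 lower calls were other-species rows themselves. It kept 19 of the 26 main calls. Apart from the fewer miRNAs tested, the causes were not tested. Leaving out each of 13 libraries in turn gave 2 to 17 higher and 11 to 27 lower. Leaving out irradiated libraries and merging antisense pairs were chosen after seeing the data. Between the irradiated groups, 0 of the 26 passed; this became 2 with RLE size factors, library totals, library sizes without miR-10a-5p, a mean of at least 10 CPM and limma-voom, 4 with DESeq2, 8 with sample quality weights, and 0 to 6 with 1 library left out. No paired analysis was possible because the labels give no number, litter or batch shared between groups. Depth limits statements below about 3.19 CPM in control library 2.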
